A study of Mus musculus with 32 samples.

Results

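The amino acid transporter genes of mouse liver were examined in regenerating adult liver and in embryonic liver. Members were all genes whose platform symbol begins with Slc1a, Slc3a, Slc6a, Slc7a, Slc36a, Slc38a or Slc43a and a number, which gave 63 of the 18194 genes measured. Of these, 60 encode carriers or their subunits, and 3 (Slc36a1os, Slc6a19os and Slc7a6os) are listed as genes lying opposite a carrier gene. Each gene was read from 1 probe set, the one of highest mean among those listed for that gene alone. Several such probe sets were listed for 32 members.

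The study profiled CD-1 mouse liver on 32 arrays in 16 groups of 2. Of these groups, 6 were embryonic liver at 10.5 and 11.5 days, 12.5 and 13.5 days, and 14.5 and 16.5 days post coitum, and 9 were liver of 10-week-old females 1, 2 and 6 h, 12, 18 and 24 h, and 30, 48 and 72 h after removal of 2/3 of the liver together with the gall bladder. The group both were set against was liver of unoperated females of the same age (time 0). Each array held RNA pooled from at least 3 tissues, so p-values measure the spread between pools. The operated mice received ketamine, xylazine and buprenorphine, and a sham-operated group was not analysed here, so operation and tissue loss cannot be told apart. One label field gives 10.5 days for all 12 embryonic arrays and another describes adult liver; stages were taken from the source name.

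Amino acid carriers move amino acids across the plasma membrane or out of lysosomes, as sodium-driven importers (much of the SLC1, SLC6 and SLC38 families) or as exchangers. The exchangers of the SLC7 family are mostly light chains that reach the cell surface only when bound to a heavy chain, Slc3a1 or Slc3a2. In adult liver, carriers of glutamine, alanine and the cationic amino acids feed urea and glucose synthesis, while the leucine exchanger and the glutamine exchanger are best known from dividing cells. In the embryo the liver is also the site where red cells form.

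Values are the deposited linear intensities, in arbitrary units, and log2 differences were taken on log2(intensity + 16), with values below 0 set to 0. This scale understates the change of dim genes. Tests were limma's moderated tests on all 32 arrays, adjusted by the Benjamini-Hochberg method over the 18194 genes, and a gene was called at an adjusted p under 0.05. The median intensity per array lay between 69.7 and 79.5. In 52 members the brightest group averaged more than 74.58, the median over all probe sets and arrays. Levels of different genes are not compared with each other, since probe sets differ in brightness.

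Some arrays stood apart. The ratio of the 3′ to the 5′ Gapdh control probe set (log2) was 1.49 on 10.5 day replicate 1, 1.22 on 48 h replicate 2, 0.323 on 2 h replicate 2 and 0.296 on 12 h replicate 2, all above time 0, where it was -0.224 and -0.329. These 4 arrays are the ones left out for a high ratio below. The same ratio for Actb was 0.334 to 0.64 on the embryonic arrays other than 10.5 day replicate 1 (0.902). It was 0.782 and 1.023 at time 0, and 0.572 to 2.419 after hepatectomy, with 1.435 and 1.717 at 2 h. The part of this ratio in the differences between embryonic and adult liver was not tested. The replicates differed most at 48 h, where the SD of the difference over genes was 0.748, against 0.436 at time 0. At 10.5 days Myh6, a heart muscle gene, averaged 1705, against 98.4 at time 0, and the summed level of 9 markers of neighbouring organs and nerve was 3104 and 1962, against 839 to 913 at time 0. The labelled tissue carried its markers: hepatocyte markers summed to 5462 to 28090 in embryonic liver, against 47950 to 58160 at time 0, and erythroid markers to 16720 to 30120, against 1098 to 1359.

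After hepatectomy few members changed. Against time 0, the alanine and glutamine importer Slc38a2 was higher over 1 to 6 h, the neutral amino acid carrier Slc43a2 over 12 to 30 h, the heavy chain Slc3a2 at 12 and 18 h, and the heavy chain Slc3a1 over 48 to 72 h. The order of these changes was not tested, and Slc43a2 and Slc3a1 read above time 0 at some times outside their intervals too. Averaged over 1 to 6 h, 2 of 63 members were higher than at time 0 (Slc38a2 and Slc7a2) and 0 were lower, beside 0.726% and 0.253% of all genes. Over 12 to 30 h, 1 member was higher and 0 were lower (2.61% and 2.18% of all genes). Over 48 to 72 h, 1 was higher and 0 were lower (2.01% and 0.638% of all genes). Without the adjustment, 4, 6 and 7 members had a limma p under 0.05 in these comparisons. The shares of all genes at this unadjusted threshold were not counted, so these members are not read as changed. The median log2 difference over the members was 0.002, 0.05 and 0.08, beside 0, -0.002 and 0 over all genes. Across the 9 times together, limma's F test passed 8 members (12.7%), beside 18.2% of all genes: Slc1a4, Slc38a2, Slc3a1, Slc3a2, Slc43a1, Slc43a2, Slc6a13 and Slc7a2. All 9 times share the 2 arrays of time 0. In these bulk samples, fewer cells of a type and less RNA per cell cannot be told apart.

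Slc38a2 (SNAT2), a sodium-coupled importer of small neutral amino acids known to be induced when amino acids run short, had the clearest course. It read 1837 and 2647 after 1 h, 1629 and 2119 after 2 h and 2525 and 2240 after 6 h, against 537 and 626 at time 0. All 6 early arrays lay above both arrays of time 0. The log2 difference over 1 to 6 h was 1.85 ± 0.20 (SE), a 3.61-fold rise (adjusted p = 9.76e-06, limma). At 12 h it still read 1370 and 1419, at 18 h 660 and 827, and at 30 h 528 and 471. Of the single times, 1, 2, 6, 12 and 72 h were called, with log2 differences of 1.90, 1.65, 2.01, 1.24 and 0.89 (adjusted p = 0.000125, 0.000687, 4.85e-05, 0.00188 and 0.0436, limma), in tests that called 0.484%, 0.572%, 2.12%, 8.88% and 3.14% of all genes. At the remaining times, 18, 24, 30 and 48 h, such tests called 7.73%, 1.25%, 0.352% and 1.5% of all genes. A second probe set of the gene read 314 to 755 at 1 to 6 h, against 134.9 and 202.6 at time 0, while the third stayed between 17.9 and 38.4, against 31.0 and 16.6. Later times were not shared: over 48 to 72 h the log2 difference was 0.48 on the probe set used, but -0.55 and -0.15 on these others. Over 12 to 30 h it was 0.37, against -0.09 and -0.21.

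Amino acid shortage is known to act on transcription through a C/EBP-ATF response element in some carrier genes, in the human Slc38a2 counterpart within an intron. Its core TGATGNAA was searched on both strands of RefSeq windows from 250 bases before to 50 bases after each gene start (build GRCm38.p6). Of the 63 members, 46 had such a window, and 5 of their 67 windows, in 4 genes (Slc7a11, Slc1a4, Slc7a7 and Slc6a21), held a match, or 7.46%, beside 3.97% of the 32851 windows in the table. The last 90 bases before the start are shown for the cystine exchanger Slc7a11, which held 2 matches (chr3:50443614-50443703, minus strand), and for the early riser Slc38a2 (chr15:96699729-96699818, minus strand) and the heavy chain Slc3a2 (chr19:8713898-8713987, minus strand), which held none; capitals mark the matches.
Slc7a11: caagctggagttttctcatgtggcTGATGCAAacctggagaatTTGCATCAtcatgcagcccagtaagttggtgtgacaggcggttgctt
Slc38a2: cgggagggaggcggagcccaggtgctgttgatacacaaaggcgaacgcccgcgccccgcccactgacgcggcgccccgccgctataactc
Slc3a2: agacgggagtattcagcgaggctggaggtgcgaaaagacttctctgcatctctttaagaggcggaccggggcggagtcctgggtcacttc

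The carrier with the matches, Slc7a11 (xCT), passed none of the 8 tests. Its arrays read 99.0 to 229 at 1 to 6 h, against 132 and 117 at time 0, and the log2 difference was 0.34 (95% interval -0.54 to 1.20). The 2 matches are those of these letters in this window, and say nothing of a factor's binding. Slc1a4 (ASCT1), an exchanger of alanine, serine and cysteine whose match lies across its start, was lowest at 6 and 12 h: it read 48.0 and 56.5 after 6 h and 52.2 and 53.5 after 12 h, against 85.6 and 91.2 at time 0. Its F test over the 9 times passed (adjusted p = 0.0457, limma), but the difference at no single time did, so its low point at 6 h, -0.62, is a description. Over 1 to 6 h the log2 difference was -0.43 on this probe set, and -0.16 and 0.04 on the others of the gene. Over 12 to 30 h it was -0.20, and -0.18 on both others.

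**Figure D1:**
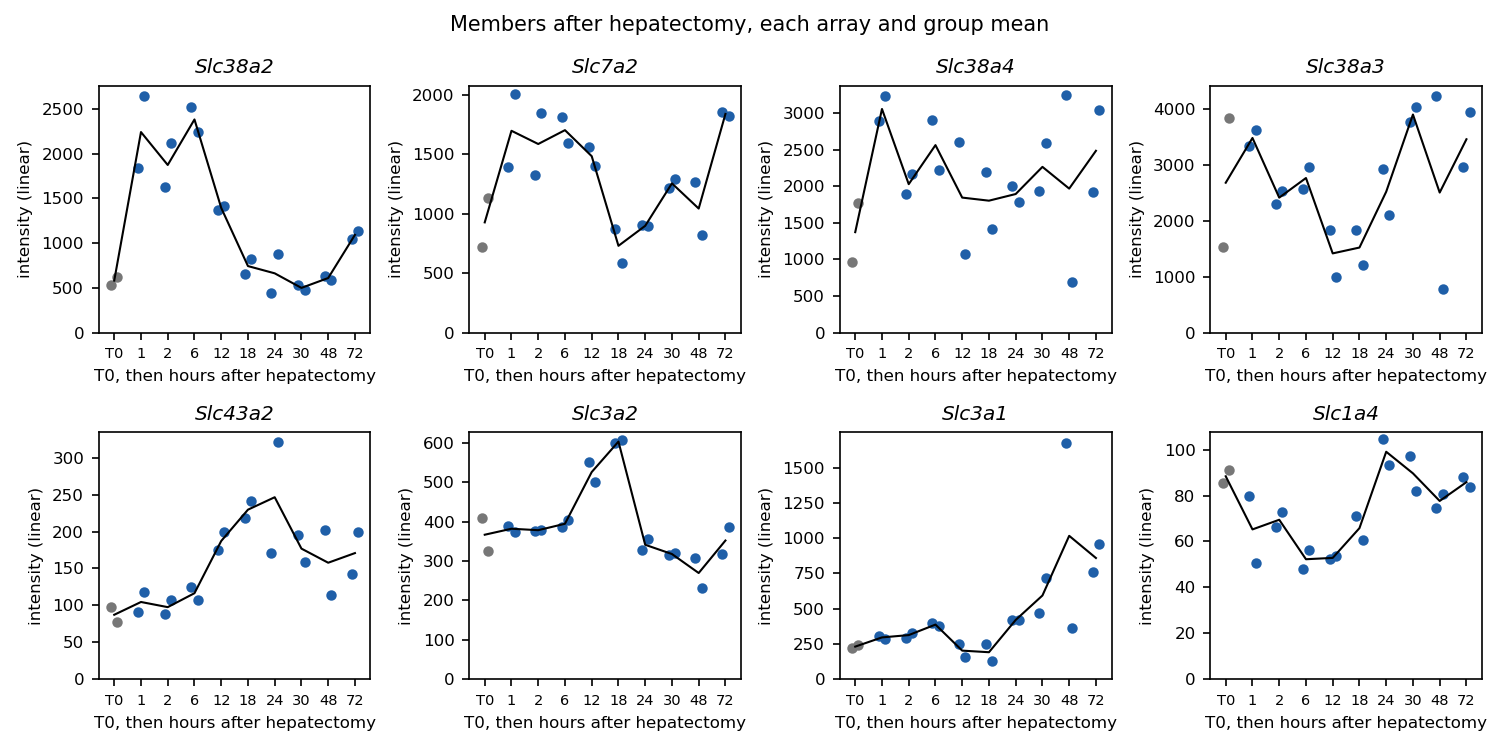
Linear intensity (arbitrary units) of 8 members on each array, at time 0 (grey) and at 1 to 72 h after hepatectomy (blue), with the line through group means (n = 2 arrays). Slc38a2 stands at 1629 to 2647 on the 6 arrays of 1 to 6 h, against 537 and 626 at time 0; the pair of arrays at 48 h lies far apart in Slc38a3, Slc38a4 and Slc3a1.

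Slc7a2 (CAT2), the cationic amino acid carrier of adult liver that brings in arginine, read 1393 and 2005 after 1 h, 1330 and 1846 after 2 h and 1813 and 1596 after 6 h, against 724 and 1131 at time 0. The 6 arrays lay above both of time 0, and the log2 difference was 0.85 ± 0.20 (SE; adjusted p = 0.0407, limma). This call was close to the threshold: it was lost without time 0 replicate 1 (0.53, adjusted p = 0.861), without either 6 h array, without replicate 2 of 1 h or of 2 h, and in the mean over the 4 probe sets of the gene (0.43). At 18 h the gene read 874 and 587, within the time 0 span or below it, and at 72 h 1861 and 1821, a log2 difference of 1.01 (adjusted p = 0.0238, limma). That call too was lost without time 0 replicate 1 (0.69) and without either 72 h array.

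The other adult-liver importers of the SLC38 family were not called at any interval. Slc38a4 (SNAT4), which carries neutral and cationic amino acids, read 1896 to 3226 at 1 to 6 h, above both time 0 arrays (968 and 1776). Its log2 difference was 0.92 with a 95% interval of 0.11 to 1.74 (adjusted p = 0.536, limma). Slc38a3 (SNAT3), the glutamine carrier of perivenous hepatocytes, read 1837 and 1000 after 12 h and 3766 and 4044 after 30 h, against 1530 and 3838 at time 0. The time 0 pair alone spanned most of this range, and the 48 h pair read 4243 and 773.

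Slc43a2 (LAT4), a carrier of branched-chain and aromatic amino acids, read 174 and 200 after 12 h, 218 and 241 after 18 h, 171 and 322 after 24 h and 195 and 158 after 30 h, against 97.6 and 76.7 at time 0. The 8 arrays lay above both of time 0, as did the 4 arrays of 48 and 72 h (114 to 202). The log2 difference over 12 to 30 h was 1.11 ± 0.19 (SE; adjusted p = 0.00156, limma), and the single times 12, 18 and 24 h were called (0.98, 1.26 and 1.29). The calls at 12 and 24 h were lost without replicate 2 of that time (0.89 and 0.86). Without time 0 replicate 2 the difference over 12 to 30 h was 0.96 (adjusted p = 0.0617, limma). A second probe set of the gene read 73.0 to 188 over 12 to 30 h, against 19.4 and 34.3 at time 0. The third read 44.5 to 728, against -66.7 and -74.6, so only its direction is given.

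The heavy chain Slc3a2 (CD98), partner of Slc7a5, Slc7a11 and other light chains, read 553 and 500 after 12 h and 599 and 608 after 18 h, against 409 and 325 at time 0. The log2 differences were 0.51 ± 0.14 after 12 h and 0.70 ± 0.14 after 18 h (SE; adjusted p = 0.0283 and 0.00362, limma). Without time 0 replicate 2 neither was called (0.35 and 0.54), and the 12 h call was also lost without either 12 h array. At 24 h it read 327 and 356, inside the time 0 span, and the average over 12 to 30 h was not called (0.23, adjusted p = 0.317). Slc7a5 (LAT1), its leucine-carrying partner, stayed dim: its 18 arrays after hepatectomy read -30.4 to 21.1, against -25.6 and -8.43 at time 0.

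Slc3a1 (rBAT), the heavy chain that serves cystine and dibasic amino acid uptake, read 1672 and 360 after 48 h and 760 and 958 after 72 h, against 221 and 240 at time 0. All 4 late arrays lay above time 0, though the 48 h pair differed by more than any other pair of this gene. It was above time 0 at some earlier times as well, at 285 to 396 over 1 to 6 h, 419.3 and 419.7 after 24 h and 467 and 719 after 30 h, without passing the test at those times. Between these, it read 246 and 158 after 12 h and 250 and 131 after 18 h. The means at 12 and 18 h, 201.8 and 190.5, were below that of time 0, 230.3. The log2 difference over 48 to 72 h was 1.76 ± 0.37 (SE; adjusted p = 0.00854, limma). It was 2.30 without 48 h replicate 2, the array of high 3′ to 5′ ratio, and 1.22 without replicate 1, both called; leaving out either time 0 array ended the call (1.70 and 1.81, adjusted p = 0.0906 and 0.0747). At 48 h alone the difference was 1.70 as fitted and 0.61 without replicate 1. Over the same times all 9 markers of dividing cells rose, to a summed level of 556 to 3245, against 204 to 377 at time 0, and 4 of 9 Kupffer cell markers rose, at a summed 3292 to 7150, against 3768 to 3793; their part in the result was not tested. Its usual light chain Slc7a9 read 16.8 to 25.9 at 48 to 72 h, against 17.8 and 14.5 at time 0.

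The remaining members called over the 9 times were Slc6a13 and Slc43a1. Slc6a13 (GAT2), a GABA and taurine carrier of periportal hepatocytes, read -32.6 and -8.63 after 12 h and -42.5 and -107 after 18 h, against 191 and 138 at time 0, and 456 and 412 after 30 h. The drop at 12 and 18 h was called (adjusted p = 0.00247 and 0.00302, limma), but its size depends on the constant added: -3.48 with 16 and -1.83 with 64. Slc43a1 (LAT3) read 5.89 and 0.588 after 18 h, against 52.7 and 35.8 at time 0, a call that was lost with the larger constant (-0.68, adjusted p = 0.124).

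Genes that handle or sense amino acids were set beside the members. Of 28 measured genes of the ATF4 and amino acid response, 3 were higher over 1 to 6 h (Atf3, Ddit4 and Cebpb, with log2 differences of 3.21, 2.70 and 1.28) and 0 lower, while its classic target Asns was among the 2 called over 12 to 30 h (0.49). The median of that list at 1 to 6 h was -0.06. Of 27 genes of amino acid breakdown and glutamine handling, 3 rose over 1 to 6 h: Got1, the aspartate aminotransferase (1.62), Tat, the tyrosine aminotransferase (2.09), and Oat, the ornithine aminotransferase (0.71); 4 fell over 12 to 30 h. Of 10 hepatocyte markers 1 was called higher over 1 to 6 h, and all 10 had a positive difference (median 0.37). Their summed level was 58720 to 83460, against 47950 to 58160 at time 0. Over 1 to 6 h the neutrophil markers S100a8 and S100a9 were higher too (2 of 7 of their list), with a summed list level of 988 to 2010, against 739 to 765 at time 0. Both were also higher over 12 to 30 h (1.68 and 1.42) and over 48 to 72 h (2.24 and 1.84), with list sums of 944 to 1690 and 752 to 1949. Over 12 to 30 h the macrophage marker Marco (0.97) was higher as well, the only 1 called of 9 in its list. The endothelium marker Lyve1 (0.88) was the only 1 called of 7. The medians of these lists were -0.014 and 0.013. Of 8 stellate and mesenchyme markers 1 was higher and 3 were lower over 12 to 30 h (median -0.53). The part of these markers in the members' changes was not tested.

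**Figure D2:**
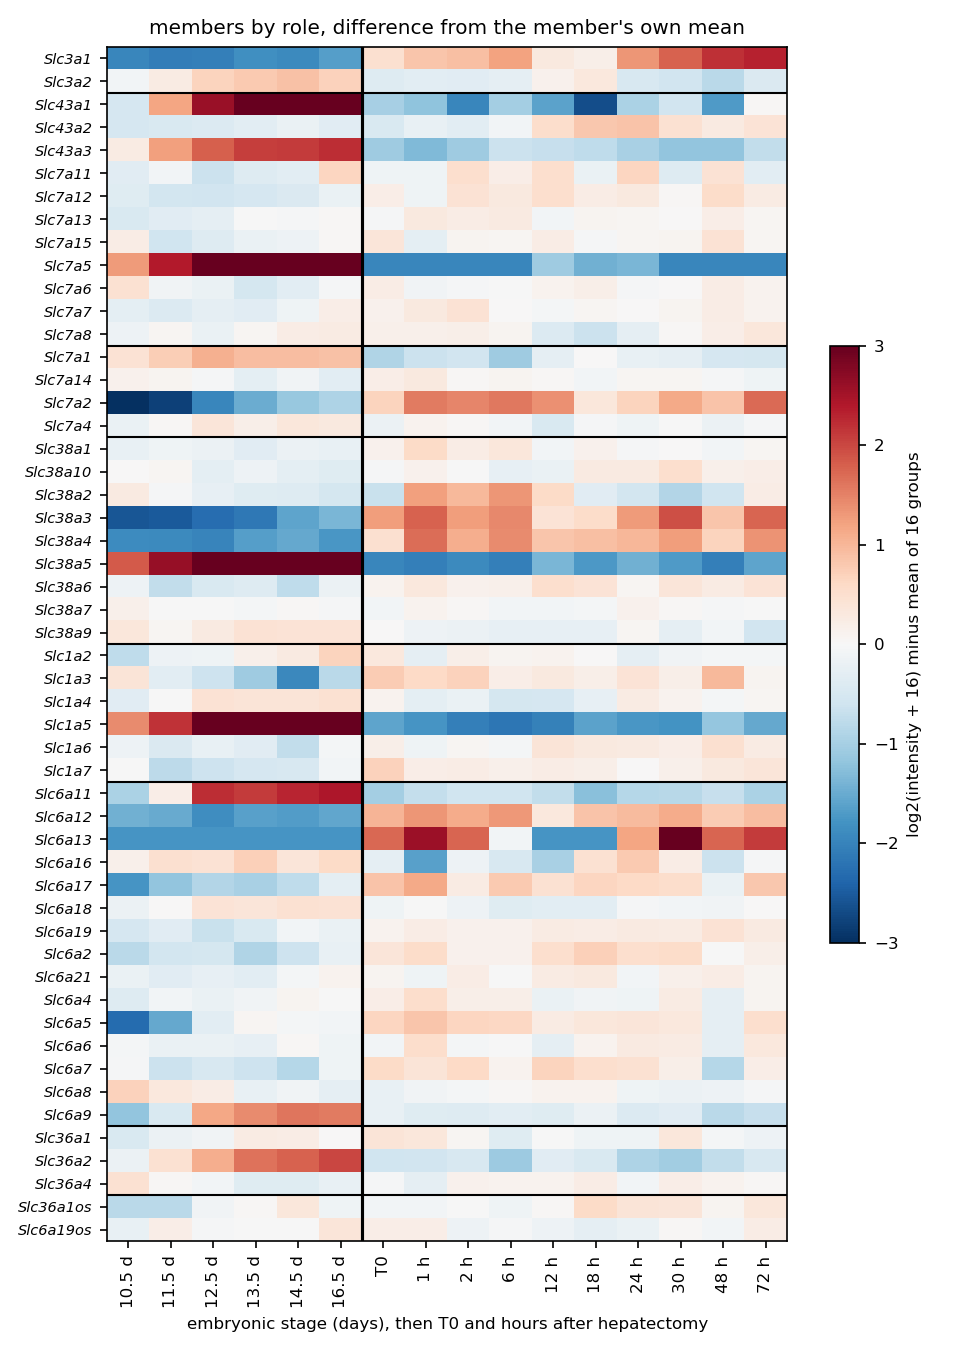
Difference of each group mean from the member's own mean over 16 groups, on log2(intensity + 16), for the 52 members with a brightest group above that median. Columns run over 6 embryonic stages, then time 0 and 9 times after hepatectomy, and rows are grouped by role, with colours ending at -3 and 3; Slc7a5, Slc1a5 and Slc38a5 are above their mean in the embryonic columns, and Slc38a3, Slc38a4 and Slc7a2 in the adult ones.

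Between embryonic and adult liver, 32 of 63 members differed. The leucine exchanger Slc7a5, the glutamine carriers Slc1a5 and Slc38a5 and the leucine carrier Slc43a1 were dim at time 0 and higher in the embryo, while the hepatocyte carriers Slc38a3, Slc38a4 and Slc7a2 and the heavy chain Slc3a1 were low in the embryo. Over the 6 stages, 18 members were higher than at time 0 and 14 lower, or 28.6% and 22.2% of the members, beside 30.9% and 24.8% of all genes. The number of members called was thus near the background. The median over the members was -0.14, beside 0.02 over all genes. Against 48 to 72 h, when adult liver holds dividing cells, 15 were higher and 22 lower, beside 35.7% and 30.8% of all genes, and 27 members were called against both. The share of all genes called against both was not counted. Both comparisons use the same embryonic arrays, so their values are given side by side only.

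By role, the members called against time 0 spread over all carrier groups. Of 13 light chains and leucine-type carriers 5 were higher and 1 lower, of 5 cationic carriers 3 and 1, of 9 SLC38 carriers 2 and 2, of 20 SLC6 carriers 5 and 7, of 7 glutamate and neutral amino acid exchangers of the SLC1 family 1 and 2, and of 4 SLC36 carriers 1 and 0. Of the 3 opposite-strand genes 0 were called, and of the 2 heavy chains 1 was higher and 1 lower. The shares of all genes in this contrast were the 30.9% and 24.8% given above, and the role groups are small.

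**Figure D3:**
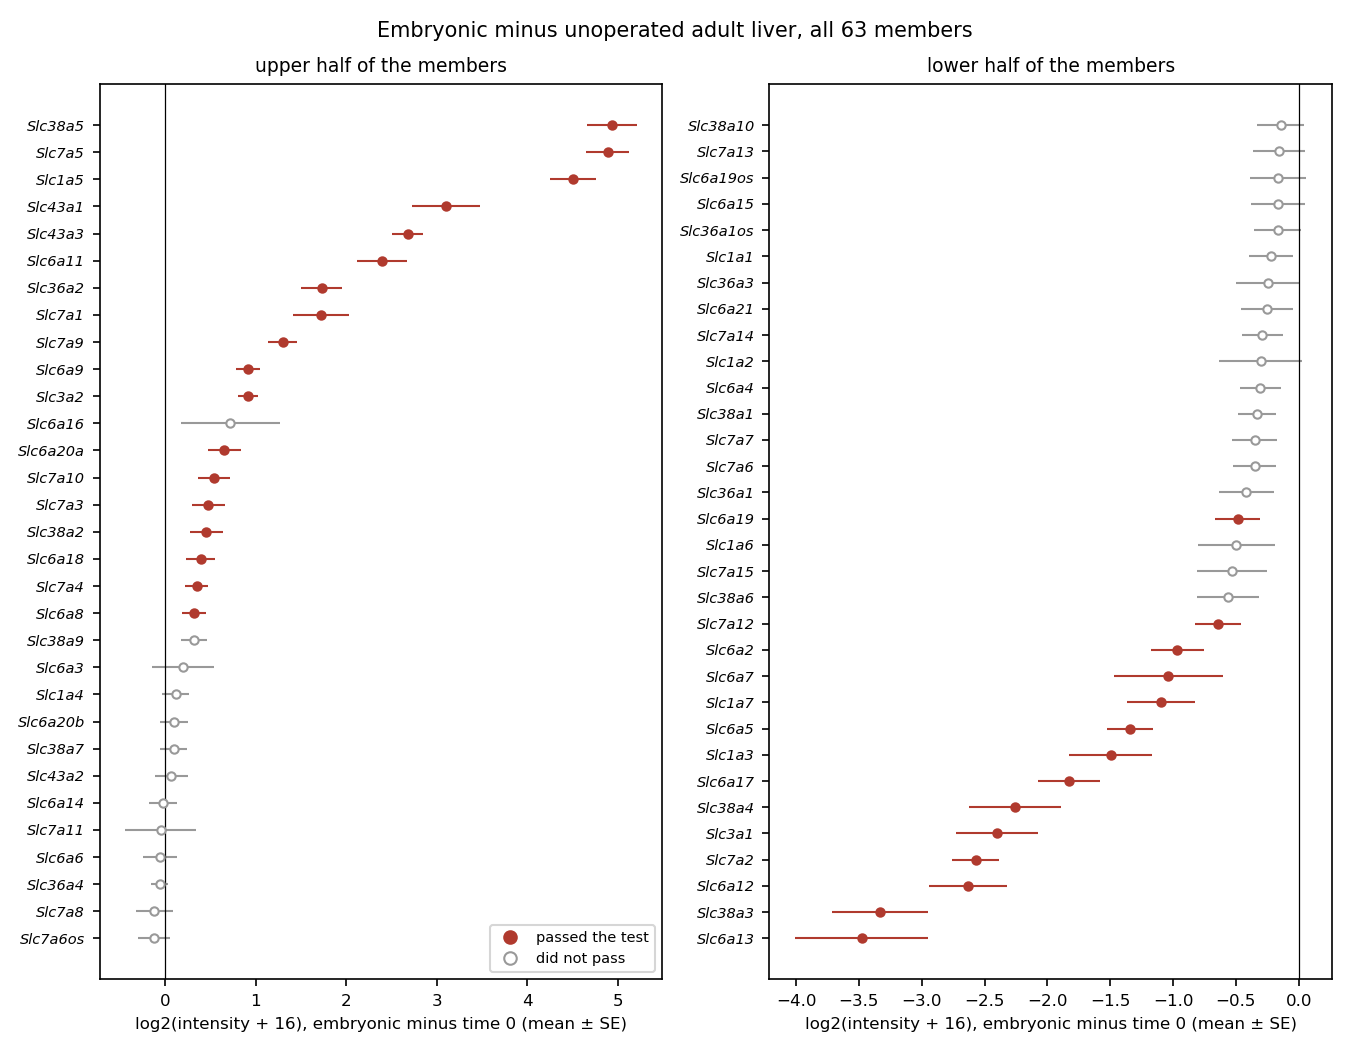
Difference of embryonic liver (mean of 6 stages, 12 arrays) minus time 0 (2 arrays) for all 63 members, on log2(intensity + 16), with the SE of the limma fit. Filled points passed the test; 3 members lie above 4 and 4 members lie below -2.5.

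In the embryo-high group, Slc7a5 read 102 to 881 with a median of 619 over the 12 embryonic arrays, against -25.6 and -8.43 at time 0. Every embryonic array lay above every adult one, whose highest was 21.1. Since time 0 was listed below 0, no fold is given; the log2 difference was 4.89 with the constant 16 and 3.05 with 64 (adjusted p = 2.48e-13 and 1.05e-15, limma). The same held for Slc38a5 (SNAT5), a glutamine, serine and glycine carrier, which read 167 to 711 with a median of 633, against 1.86 and -9.78 at time 0 (4.93 and 3.13, adjusted p = 1.96e-12 and 3.94e-15, limma).

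Slc1a5 (ASCT2), the glutamine exchanger known from dividing cells, read 164 to 896 with a median of 742 in the embryo, against 9.68 and 6.48 at time 0. The log2 difference was 4.50 with 16 and 3.06 with 64 (adjusted p = 3.19e-12 and 1.73e-16, limma), and no embryonic array came near the adult span of -7.64 to 23.1. Its second probe set did not follow: it read 120 to 257 in the embryo, against 207 and 154 at time 0.

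The heavy chain partner, Slc3a2, was already present in adult liver and read 435 to 899 with a median of 776 in the embryo, against 409 and 325 at time 0 (0.91 ± 0.11 (SE), adjusted p = 3.37e-07, limma). All 12 embryonic arrays lay above both of time 0, but 10.5 day arrays (435 and 477) were below the 18 h arrays of regenerating liver (599 and 608). Slc3a1 went the other way, at 24.3 to 56.7 in the embryo, against 221 and 240 at time 0 (-2.40 ± 0.32), and its light chain Slc7a9 was higher, at 46.4 to 89.4, against 17.8 and 14.5 (1.30 ± 0.16). The heavy and light chain of this pair thus differed in opposite directions, each past the test. Slc7a9 is dim, however: its brightest group averaged 74.09, below the median of 74.58.

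Among the SLC43 carriers, Slc43a1 read 42.7 to 1126 with a median of 813 in the embryo, against 52.7 and 35.8 at time 0 (3.11 ± 0.38), and 11 of 12 embryonic arrays were above both. Slc43a3, known in human cells as a purine base carrier, read 179 to 813, against 85.9 and 51.6 (2.68 ± 0.17). Slc43a2, the riser of 12 to 30 h, read 81.4 to 114, against 97.6 and 76.7, and did not pass the test (0.07 ± 0.19). Set against 48 to 72 h it was lower in the embryo (-0.71 ± 0.14, adjusted p = 1.58e-04, limma), and by -0.89 without 48 h replicate 2.

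The cationic carriers split by isoform. Slc7a1 (CAT1), the widely used arginine carrier that adult hepatocytes hold at low levels, read 302 to 713 with a median of 526 in the embryo, against 75.9 and 268 at time 0 (1.72 ± 0.31). The 2 time 0 arrays differed more than 3-fold, and a second probe set read 126 to 342 in the embryo, against 3.77 and 1.06. The third had the other sign, at 18.5 to 48.4 in the embryo, against 69.5 and 65.6 (-0.72). Slc7a2 read 48.4 to 290 with a median of 164, against 724 and 1131 at time 0 (-2.57 ± 0.19, adjusted p = 1.53e-10, limma), with no overlap. Of its 4 probe sets 1 did not share this sign, at 141 to 279 in the embryo, against 165.1 and 201.5 (0.09).

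Of the hepatocyte carriers of the SLC38 family, Slc38a3 read 132 to 426 with a median of 204, against 1530 and 3838 at time 0, and Slc38a4 read 192 to 321 with a median of 271, against 968 and 1776. Their log2 differences were -3.33 ± 0.38 and -2.26 ± 0.37 (SE; adjusted p = 1.58e-07 and 1.95e-05, limma), and the second probe set of each had a difference of the same sign (-1.36 and -1.38). Set against 48 to 72 h the differences were -3.37 and -2.79, and -3.98 and -3.34 without 48 h replicate 2. Slc38a2 differed little by comparison: it read 606 to 1151 in the embryo, against 537 and 626 at time 0 (0.46, adjusted p = 0.0405, limma), a call lost without the 10.5 day arrays (0.36, adjusted p = 0.114). Slc38a9, a lysosomal carrier that reports arginine to mTORC1, passed against 48 to 72 h only (0.65), and the mean over its 7 probe sets had the other sign (-0.08).

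In the SLC6 family, 25% of the 20 members were higher in the embryo and 35% lower, beside 30.9% and 24.8% of all genes. Slc6a9 (GlyT1), the glycine importer that supplies heme synthesis in red cell precursors, read 113 to 974 with a median of 747, against 265 and 237 at time 0 (0.91 ± 0.13); 8 of 12 embryonic arrays were above time 0 and 3 below it. Slc6a11, a GABA carrier, read 20.7 to 537 with a median of 380.0, against 30.5 and 29.9 (2.39 ± 0.28), but its second probe set was flat, at 19.1 to 41.2, against 28.1 and 34.1. Slc6a12 (BGT1), the betaine carrier, read 2.48 to 30.4, against 187 and 143 at time 0 (-2.63 ± 0.31). Slc6a13 was listed below 0 on all 12 embryonic arrays, between -3845 and -533, against 191 and 138, so only the direction of its call is given.

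Further SLC6 members are known mainly from nerve. Slc6a17, a vesicle carrier of neutral amino acids, read 53.4 to 208, against 421 and 521 at time 0 (-1.83 ± 0.24). Slc6a5 (GlyT2) read 9.17 to 122, against 165.3 and 204.3 (-1.34 ± 0.18), and the noradrenaline carrier Slc6a2 read 53.2 to 133, against 170 and 242 (-0.97 ± 0.21). In each of the 3, at least 1 other probe set differed by less than 0.2 between embryo and time 0. Slc36a2 (PAT2), a proton-coupled carrier of glycine and proline, was the only SLC36 member called against time 0, at 31.7 to 236 in the embryo, against 24.2 and 21.2 (1.73 ± 0.23). Of the remaining calls against time 0, Slc6a20a, Slc7a10, Slc7a3, Slc6a18, Slc7a4 and Slc6a8 were higher in the embryo by 0.32 to 0.66, and Slc1a7, Slc6a7, Slc7a12 and Slc6a19 differed by -1.09 to -0.49. The calls of Slc6a8, Slc6a18 and Slc6a7 were lost without either time 0 array and with array weights (adjusted p = 0.0688, 0.0816 and 0.0777, limma), and those of Slc7a4, Slc1a7, Slc7a12 and Slc6a19 without time 0 replicate 1.

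The embryonic samples differed from adult liver in cell makeup as well. All 11 measured erythroid markers and all 9 markers of dividing cells were higher in the embryo, the latter at a summed 10950 to 18800, against 204 to 377 at time 0. Of 10 hepatocyte markers 8 were lower, and of the perivenous hepatocyte markers, the zone where Slc38a3 is found, 6 of 8 were lower and 1 higher, at a summed 1975 to 2440, against 9321 to 13410. Neutrophil markers were higher in 6 of 7 (summed 640 to 8020, against 739 to 765 at time 0), stellate and mesenchyme markers in 6 of 8 and lower in 2 (3326 to 7201, against 1785 to 2036), hepatoblast markers higher in 4 of 7 and lower in 1 (14790 to 17990, against 1666 to 1867) and megakaryocyte markers higher in 2 of 4 (2291 to 5391, against 601 to 606). Kupffer cell markers were lower in 4 of 9 (1638 to 4557, against 3768 to 3793). Of 27 genes of amino acid breakdown, 26 were lower and 0 higher (median -2.45); of 28 genes of the ATF4 and amino acid response, 12 were higher, led by Asns (3.73) and Psat1 (3.48), and 7 lower; of 23 genes that sense amino acids upstream of mTORC1, 10 were higher and 0 lower. These counts stand beside 30.9% higher and 24.8% lower of all genes. The part of cell makeup in the members' differences was not tested.

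Over the embryonic stages, 12 of the 18 carriers that were higher in the embryo than at time 0 rose, with the steepest slopes in Slc43a1, Slc6a11 and Slc6a9 (0.56, 0.54 and 0.47 log2 units per day, and 0.33, 0.34 and 0.34 without the 10.5 day arrays, all called). The share that rose among all genes higher in the embryo was not counted. On the second probe sets of Slc6a11 and Slc6a9 the slopes were -0.07 and 0.35. A linear trend over the 6 stages was called upward in 20 members and downward in 5, or 31.7% and 7.94%, beside 16.4% and 11.5% of all genes. By role, slopes were upward and downward in 1 and 0 of 2 heavy chains, 3 and 0 of 13 light chains and leucine-type carriers, 2 and 0 of 5 cationic, 2 and 1 of 9 SLC38, 3 and 1 of 7 SLC1, 7 and 1 of 20 SLC6 and 1 and 1 of 4 SLC36 carriers, and in 1 and 1 of the 3 opposite-strand genes. An F test over stages called 20 members (31.7%), beside 21.2%. The median slope was 0.06 log2 units per day over the members, beside 0.01 over all genes. Without both 10.5 day arrays, 11 members had a called trend, 10 of them upward, and 12 passed the F test. The shares of all genes in this setting are not given here.

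Slc6a9 had the trend of smallest p. It read 113 and 132 at 10.5 days, 248 and 182 at 11.5 days, 690 and 668 at 12.5 days, 828 and 804 at 13.5 days, 974 and 891 at 14.5 days, and 907 and 912 at 16.5 days. It lay below both time 0 arrays (265 and 237) at 10.5 days and above them from 12.5 days on. Its slope was 0.47 ± 0.03 log2 units per day (SE; adjusted p = 1.3e-11, limma), and 0.34 without the 10.5 day arrays.

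Slc43a1 read 42.7 and 106 at 10.5 days, 306 and 211 at 11.5 days, 767 and 642 at 12.5 days and 859 to 1126 from 13.5 days on (0.56 ± 0.07 per day). Slc7a5 read 102 and 176 at 10.5 days, 320 and 296 at 11.5 days, 636 and 585 at 12.5 days, 881 and 771 at 13.5 days, and 601 to 671 at 14.5 and 16.5 days. Its slope, 0.33 over all stages, was not called without the 10.5 day arrays (0.16, adjusted p = 0.0537, limma). Slc1a5 read 164 and 192 at 10.5 days and 861 and 896 at 16.5 days (0.36 ± 0.05 per day, and 0.24 without the 10.5 day arrays, both called). On its second probe set the slope was 0.015. Marker lists moved over the stages too. The erythroid sum was 17007 and 16720 at 10.5 days, 22397 and 19151 at 11.5 days and 27442 to 30125 from 12.5 days on, with 9 of 11 markers rising and 2 falling. The neutrophil sum was 784 and 640 at 10.5 days and 7553 and 8020 at 16.5 days, with 7 of 7 rising. Of 9 Kupffer cell markers 7 rose and 0 fell, of 8 stellate and mesenchyme markers 2 rose and 5 fell, and of 7 endothelium markers 2 rose and 4 fell. Their part in the members' slopes was not tested.

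Of 19 members called both against time 0 and in the trend, 12 were higher in the embryo and rose, 2 (Slc38a2 and Slc6a8) were higher and fell, 4 (Slc38a3, Slc6a17, Slc6a5 and Slc7a2) were lower and rose, and 1 (Slc1a3) was lower and fell. The same split over all genes was not counted. These slopes are of the probe sets used. The other probe sets had slopes of -0.02 and 0.09 in Slc6a17, and of -0.02 in Slc6a5. Slc7a2 read 48.4 and 60.3 at 10.5 days, 65.5 and 66.6 at 11.5 days, 158 and 110 at 12.5 days, 169 and 214 at 13.5 days, 254 and 240 at 14.5 days and 283 and 290.0 at 16.5 days (0.39 ± 0.04 per day, and 0.36 without 10.5 days). The other probe sets of Slc7a2 had slopes of 0.09, 0.04 and -0.04 per day. Slc38a3 read 184 and 132 at 10.5 days and 339 and 426 at 16.5 days, still below the lower time 0 array (1530). Its slope of 0.22 was not called without 10.5 days (0.25, adjusted p = 0.0838, limma), and its second probe set had a slope of 0.01. Hepatocyte markers summed to 6034 and 5462 at 10.5 days and to 27573 and 28086 at 16.5 days, and 5 of 10 rose.

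The members that fell over the stages included Slc38a2, at 1151 and 1109 at 10.5 days and 606 and 673 at 16.5 days (-0.12 ± 0.04 per day), and the creatine carrier Slc6a8, at 163 and 133 at 10.5 days and 60.8 and 76.6 at 16.5 days (-0.15 ± 0.03). Without the 10.5 day arrays, where the heart marker was high, the slope of Slc6a8 was called (-0.12) and that of Slc38a2 was not (-0.09, adjusted p = 0.182, limma). The second probe set of Slc6a8 did not fall: it read 63.5 to 110.5 in the embryo, with a slope of 0.025. The other probe sets of Slc38a2 had slopes of -0.16 and -0.06.

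**Figure D4:**
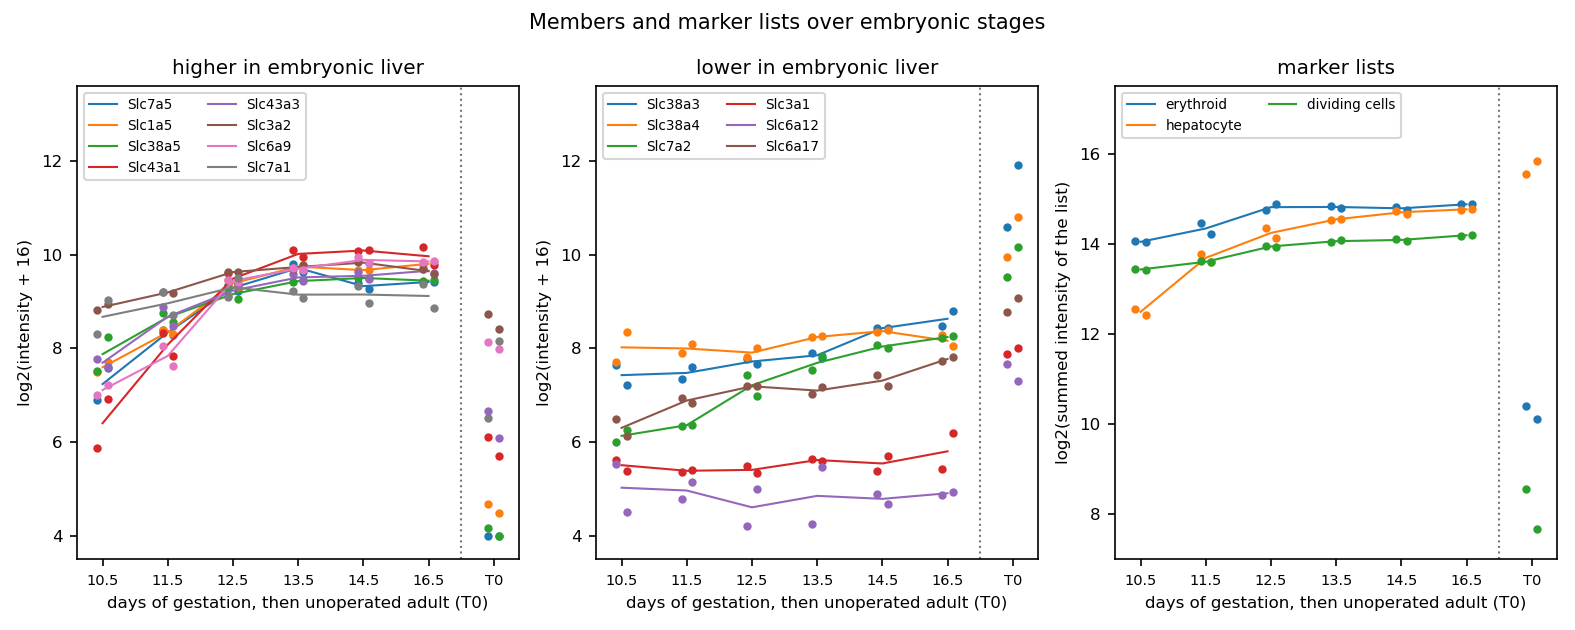
Values on log2(intensity + 16) of 8 members higher and 6 lower in embryonic liver, and log2 summed intensity of 3 marker lists, by stage, with time 0 on the right of the dotted line (each point 1 array, lines through stage means). Of the 8 higher members all but Slc7a1 had a called upward trend, and among the embryonic stages the erythroid and hepatocyte sums are lowest at 10.5 days.

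Probe sets of 1 gene did not always tell the same story. Of the 32 members called between embryo and time 0, 15 had several probe sets; in 6 of these all probe sets had the same sign, and in 9 at least 1 had the other sign. Gaps between probe sets were also found in members not called between embryo and time 0, among them Slc38a9 (-1.89 to 0.66) and Slc7a6 (-0.35 and 1.24), and 2 further such members are given in full. Slc38a1 (SNAT1), a glutamine importer, read 206 to 299 in the embryo, against 277 and 367 at time 0, on its chosen probe set (-0.33, adjusted p = 0.0615, limma). On its other probe set it read 224 to 574 in the embryo, against -2.16 and 3.74 at time 0, with all 18 arrays after hepatectomy at -20.1 to 15.1.

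Slc1a2 (GLT-1), the glutamate importer of perivenous hepatocytes, read 231 to 1961 in the embryo, against 1195 and 734 at time 0, on the chosen probe set (-0.30, 95% interval -0.99 to 0.38). Its upward trend over stages (0.21 per day, adjusted p = 0.0138, limma) was lost without 10.5 day replicate 1 (0.11) or 16.5 day replicate 2 (0.11). A dimmer probe set read -2.18 to 25.6 in the embryo, against 203 and 186 at time 0, and another read 68.2 to 110, against 172 and 182. A further probe set had the other sign, at 75.7 to 136 in the embryo, against 41.9 and 80.5 at time 0 (0.64). The last read 20.2 to 53.7, against 38.2 and 43.2 (-0.25). In Slc1a3 (GLAST), a glutamate importer, the chosen probe set was lower in the embryo (11.0 to 192, against 194 and 178; -1.50, adjusted p = 0.000603, limma), while another read 192 on average at 10.5 days, against -23.8 and 20.5 at time 0, and the mean over its 6 probe sets differed by -0.08 (adjusted p = 0.661, limma). Which transcripts or ends each probe set reads was not examined here.

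**Figure D5:**
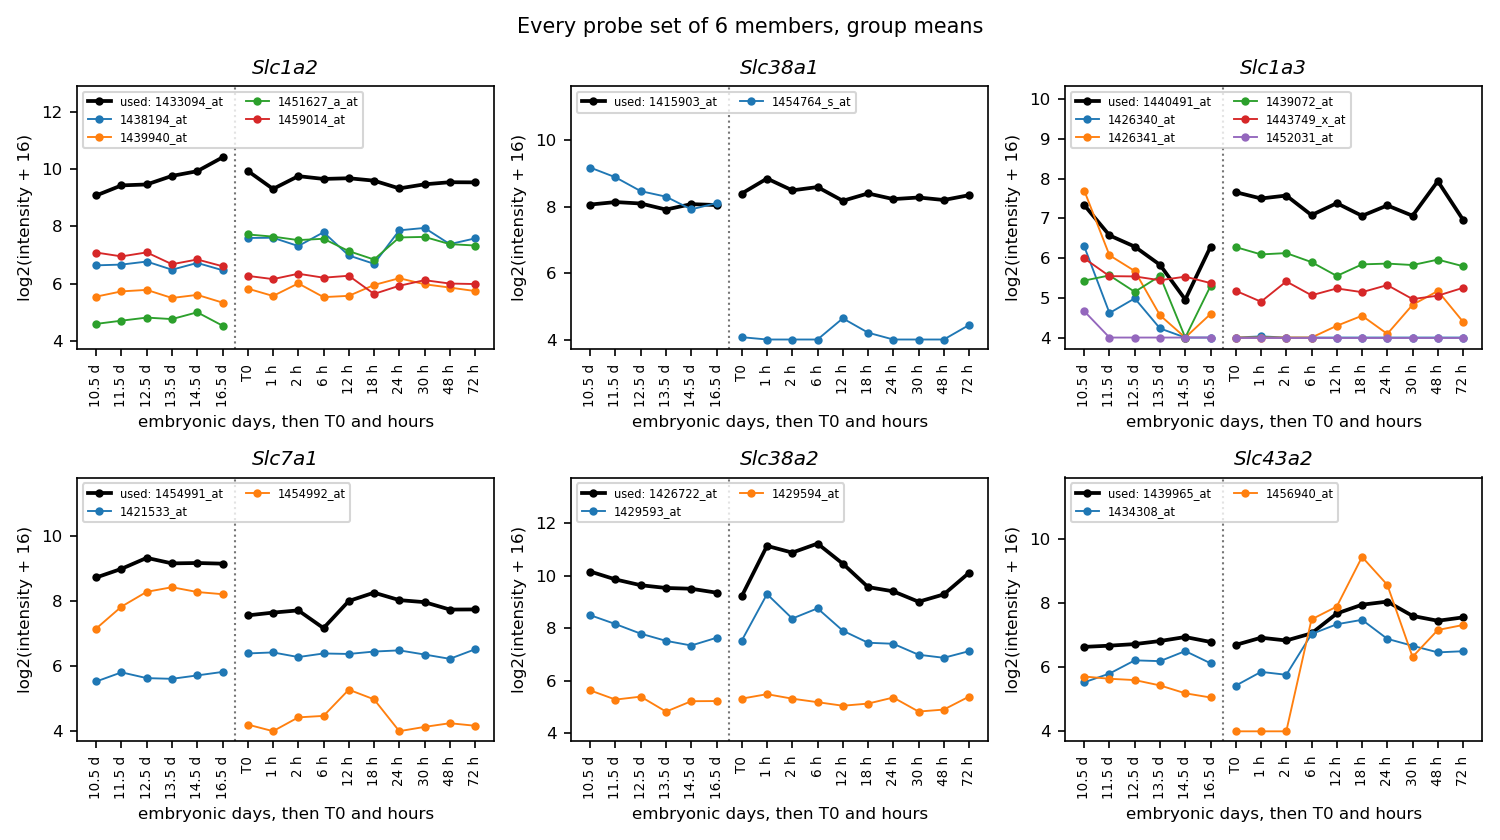
Group means on log2(intensity + 16) of every probe set of 6 members (thick black: the one used), over 6 embryonic stages, then time 0 and 9 times after hepatectomy. The probe sets of Slc38a1 and Slc1a2 part between embryonic and adult groups, while all 3 of Slc43a2 are higher at 12 to 30 h than at time 0.

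In all, 47 members passed at least 1 of the 8 tests, 39 of them with a brightest group above the median given above, and 16 passed none: Slc36a1, Slc36a3, Slc38a1, Slc38a7, Slc6a16, Slc6a19os, Slc6a20b, Slc6a21, Slc6a3, Slc6a4, Slc6a6, Slc7a11, Slc7a13, Slc7a14, Slc7a15 and Slc7a8. Among these, Slc6a6, the taurine carrier, read 318 to 427 in the embryo and 231 to 649 in adult liver, and Slc7a8 (LAT2) read 31.2 to 80.6 and 27.2 to 93.1. Of the 63 members, 24 had their highest group mean in an embryonic stage, 37 after hepatectomy and 2 at time 0. Embryonic stages make up 6 of the 16 groups and times after hepatectomy 9. Shares of all genes peaking in each class, or passing at least 1 of the 8 tests, were not counted.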

How the data were processed

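Per the labels' protocols, 6 microg of Trizol total RNA per sample was made into biotinylated cRNA and hybridised to 1-colour arrays. The deposited table holds 1 linear intensity per probe set and array (45101 probe sets); neither software nor normalization is given in the sources used here, and no scanner files were used. Of the values, 2.54% to 4.02% per array lay below 0. The number of arrays limits the precision.

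Symbols came from the platform annotation; 18194 genes had a probe set with 1 symbol. Per gene the probe set of highest mean was kept, set to at least 0, and log2(intensity + 16) taken. limma 3.58.1 in R 4.3.3 (lmFit, then eBayes with a trend) fitted 1 mean per group over 32 arrays (16 residual and 4.72 prior degrees of freedom). The 8 tests were 6 contrasts and 2 F tests; single times are named only where the F test over 9 times passed. The fit was tested on simulated data.

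The members, lists and tests were chosen with earlier results of these data known. Members described array by array were those called in at least 1 test with a highest group mean above 74.58, plus Slc3a2, Slc7a2, Slc7a5, Slc7a11, Slc1a2, Slc1a5, Slc38a2, Slc38a3 and Slc38a4; other members and probe sets were named after their values were seen. Of list genes, up to 4 of smallest p per contrast were named. Replicate numbers were not treated as pairs in the main fit. Of 120 correlations between groups of the replicate differences, 17 were over 0.1. Their median was -0.006 and they ranged from -0.357 to 0.555. Alternatives were another constant, quantile normalization, the mean of probe sets, no probe sets marked _x_at or _s_at, a filter, array weights, a replicate block, fewer arrays in the fit, and leaving out each array; leaving out 4 arrays of high 3′ to 5′ ratio, and the 10.5 day arrays, was added after seeing the data.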

Additional observations from a re-analysis of the deposited data

How the results depend on the processing

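With 2 arrays per group and a time 0 pair shared by every adult comparison, the small counts after hepatectomy depend on the processing. The shares of all genes in each setting, with or without the adjustment, are not given here. The counts below therefore show only how far they move, and are not a result about the members. Over 1 to 6 h the count of 2 became 1 with the mean of probe sets, with the replicate block, without the 4 arrays of high 3′ to 5′ ratio and with only the compared arrays fitted, and was 1 to 2 without single arrays. Over 12 to 30 h the count of 1 became 2 after quantile normalization and without those 4 arrays, and 0 with only the compared arrays fitted, where 6 members had an unadjusted limma p under 0.05; without single arrays it stayed at 1. Over 48 to 72 h the count of 1 became 3 after quantile normalization, 2 with the mean of probe sets, 2 with the filter, 4 without the 4 arrays and 0 with only the compared arrays fitted, where 5 had an unadjusted limma p under 0.05; without single arrays it was 0 (without either time 0 array) to 5 (without 48 h replicate 1). The F test over 9 times called 13 with array weights and 5 with only the compared arrays fitted, and 6 to 20 without single arrays, the 20 without 48 h replicate 1. Counts in the embryonic comparisons were 22 to 33 against time 0 (22 without time 0 replicate 1), 32 to 40 against 48 to 72 h, 20 to 26 for the trend and 15 to 22 for the F test over stages without single arrays; without the 10.5 day arrays the trend called 11 and the F test 12.

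Of 103 calls in contrasts, trend and single times, of members above the median of all values, 2 were lost with the constant 64, 8 after quantile normalization, 19 with the mean of probe sets, 2 without probe sets marked _x_at or _s_at, 0 with the filter, 15 with array weights, 3 with the replicate block, 10 without the 4 arrays and 23 with only the compared arrays fitted; 33 were lost without at least 1 single array, and 14 of 83 embryonic calls without the 10.5 day arrays. The replicate block ended the call of Slc7a2 over 1 to 6 h (adjusted p = 0.0545, limma). The sign turned with the mean of probe sets in Slc7a4 (-0.13 against time 0 and -0.15 against 48 to 72 h), in Slc38a9 (-0.083) and in Slc7a6 (0.52, adjusted p = 9.61e-06, limma) against 48 to 72 h, and without probe sets marked _x_at or _s_at in Slc7a7 (0.026). Why these values moved was not tested, apart from the smaller number of arrays where arrays were left out.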
